A study of Mus musculus with 5 samples.

Results

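The Onecut genes Onecut1, Onecut2 and Onecut3 are 3 of the 22380 protein-coding genes annotated on the mouse genome build mm9. They were examined for REST binding in embryonic pancreas by taking every called ChIP-seq peak that lay inside the gene body or within 100 kb of the gene start. The data were 5 peak lists, made with the mouse monoclonal antibody 12C11 against REST from whole pancreas of untreated wild-type embryos on a mixed strain background with C57BL/6. There were 3 libraries of E18.5 pancreas (A, B and C, each a pool of 3 to 4 organs) and 2 of E13.5 pancreas (A and B, each a pool of 4 to 6 organs), and the labels give no difference between the groups beyond stage and pool size. The lists held 541, 417 and 226 peaks at E18.5 and 1400 and 1333 at E13.5. By the rule above 10 of these peaks belonged to the Onecut genes, and peaks of different libraries that overlapped were joined into 6 sites, out of 1860 sites in the series. Onecut2 held 4 sites, Onecut1 held 2 and Onecut3 held none. Whole organs were used, so a peak can come from any cell type present. Peak lists carry no expression values, and the tissue label was therefore not checked against marker genes. Read totals were not used here, and a missing peak means only that none was called at the depth of that library.

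REST is a zinc-finger repressor that binds a DNA element called RE1 and recruits corepressors to keep neuronal and endocrine genes silent in other cells. The Onecut proteins are transcription factors with a single CUT domain followed by a homeodomain. Onecut1, also known as HNF6, is a factor of liver and pancreas that acts upstream of Neurog3 in endocrine progenitors and is needed to form normal pancreatic ducts. Onecut2 overlaps with Onecut1 in the endoderm and is also found in neurons. Onecut3 is best known from the nervous system. All of them serve in neurons of the retina and spinal cord.

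The RE1 sequence is shown first, because the sites at the Onecut genes differed in how well they held it. A 21-base consensus was derived from the 500 best-ranked sites of both E13.5 libraries on chromosomes that carry no Onecut gene, and 416 of them entered the final alignment. Below the consensus are the match inside the called peak of the Onecut1 intron, the other Onecut1 matches with at most 5 mismatches, which had no peak, and those around Onecut3, which had none either. Capitals mark bases that equal the consensus, and each is written 5′ to 3′ on the strand of the element.
Consensus: TTCAGCACCATGGACAGCGCC
Onecut1 intron, called peak, chr9:74716353-74716373, plus strand: gTCAGgACCcTGGACAGaGCC
Onecut1 intron, no peak, chr9:74714487-74714507, plus strand: TgCAGCACCcgGGACttCGCC
Onecut1 downstream, no peak, chr9:74757431-74757451, minus strand: TTCAGgcaCAcGcACAGCGCC
Onecut3 window, Tcf3 coding exon, no peak, chr10:79873337-79873357, plus strand: TTCtcCtCCAgGGACAGCaCC
Onecut3 window, Tcf3 intron, no peak, chr10:79892754-79892774, minus strand: TgCAGCcCtAgGGACAGaGCC

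The element under the Onecut1 peak differed from the consensus at 4 positions, T1G, C6G, A10C and C18A, where the consensus base stands first and positions are counted from the 5′ end. These are positions at which REST sites vary, since 56.7%, 68.5%, 54.6% and 78.6% of the 416 aligned sites shared the consensus base there. At 12 of the 21 positions the shared base was present in at least 80% of the sites, and the Onecut1 element kept all 12. The match without a called peak nearby in the same intron had 5 mismatches. They included A16T and G17T, at positions where 97.8% and 98.3% of the sites shared the base. The match 47.7 kb downstream had A7C, C8A and G13C at such positions, with shares of 99.5%, 99.8% and 98.8%. In the Onecut3 window the match in the coding exon of Tcf3 had A4T, G5C and A7T, and the match in its intron had A7C and C9T.

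The sequences of both Onecut1 sites are given around their centres as 300 bases of the plus strand, to show the element in its place and a called peak that lacks it. In the intron site capitals mark the RE1 match, whose centre lay 30 bp from the centre of the site. The site upstream of the gene was called in E18.5 B only. It held no match with at most 5 mismatches, its closest one having 9, and its first bases are a run of the repeat AC.
Onecut1 intron site, chr9:74716243-74716542: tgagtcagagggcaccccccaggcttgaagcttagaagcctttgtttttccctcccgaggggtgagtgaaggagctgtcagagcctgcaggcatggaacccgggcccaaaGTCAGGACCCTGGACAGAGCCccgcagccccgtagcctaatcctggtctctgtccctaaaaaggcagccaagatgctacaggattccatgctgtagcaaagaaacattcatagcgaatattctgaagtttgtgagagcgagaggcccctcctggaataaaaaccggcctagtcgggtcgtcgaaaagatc
Onecut1 upstream site, chr9:74686963-74687262: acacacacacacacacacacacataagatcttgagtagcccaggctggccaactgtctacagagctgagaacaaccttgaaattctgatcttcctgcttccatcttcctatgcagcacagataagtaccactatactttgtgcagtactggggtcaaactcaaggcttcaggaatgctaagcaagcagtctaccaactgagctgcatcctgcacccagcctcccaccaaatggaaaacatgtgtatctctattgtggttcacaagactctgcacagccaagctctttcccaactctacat

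Onecut1 had a REST site in its own intron at E13.5 (chromosome 9, 74716211 to 74716575), 6.67 kb downstream of the gene start. The gene (ENSMUSG00000043013.7) spans 74709728 to 74737591 on the plus strand, and the site also fell in an intron of the noncoding transcript Gm16551. By the same rule the site also belonged to the gene BC031353. No E18.5 library had a peak there, against scores of 19 in E13.5 A and 13 in E13.5 B. The score is the authors' value of a peak, with no unit given, and is read here as a rank within its library, where 100 is the highest percentile. The site ranked at 69.7 in E13.5 A and 29.5 in E13.5 B, so its place differed widely between libraries of the same stage. Its peaks were 173 and 365 bp wide, in lists whose median widths were 161 and 483 bp. The other Onecut1 site (chromosome 9, 74686965 to 74687261) was intergenic, 22.6 kb upstream, with a score of 5 in E18.5 B, at a rank of 29.5 shared by 125 peaks of that score. It was called in no other E18.5 library and in neither E13.5 library. A peak near Onecut1 was thus called at both stages at different places, but at E18.5 in 1 library only and without an RE1 match.

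**Figure D1:**
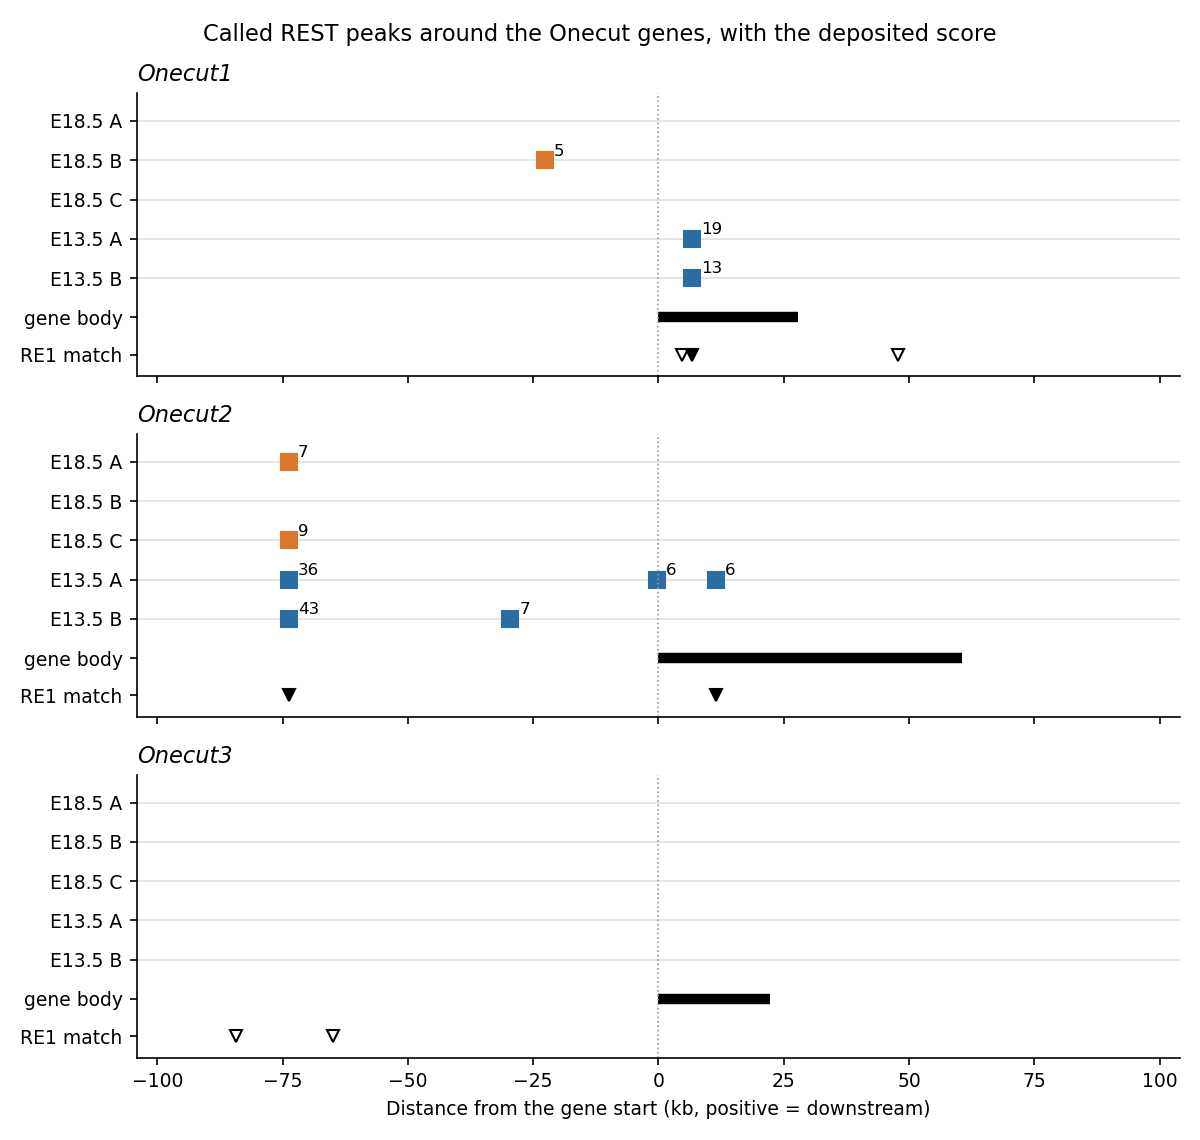
Called REST peaks (squares, with the deposited score beside each) within 100 kb of the start of Onecut1, Onecut2 and Onecut3, by library, with the gene body as a black bar and RE1 matches of at most 5 mismatches as triangles, filled where a peak was called. The x axis is the distance from the gene start in kb. Onecut2 has 7 peaks at 4 sites, Onecut1 has 3 peaks at 2 sites, and the Onecut3 rows are empty.

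Onecut2 carried the highest-ranked REST site of the family, but far from its own start. The gene (ENSMUSG00000045991.9) spans 64500002 to 64560641 of chromosome 18 on the plus strand. The site (chromosome 18, 64426020 to 64426562) was 73.7 kb upstream of Onecut2. It lay in an intron of St8sia3, a sialyltransferase gene of the brain, 12278 bp downstream of the St8sia3 start, and also in an intron of the noncoding transcript 1700091E21Rik. Its scores were 7 in E18.5 A and 9 in E18.5 C, with no peak in E18.5 B, against 36 in E13.5 A and 43 in E13.5 B. In ranks these were 61.3 and 27.0 at E18.5, against 95.3 and 94.3 at E13.5, where it was peak 64 of 1400 and peak 72 of 1333 from the top. The 2 E13.5 libraries placed the site almost equally high. Ranks of lists as unequal in length as those of the 2 stages are given side by side and are not a measured stage difference. The RE1 match there had 5 mismatches, was centred 3 bp from the centre of the site, and kept all 12 of the widely shared positions.

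The other Onecut2 sites were each called in a single E13.5 library, near the bottom of its list. One lay 345 bp upstream of the Onecut2 start (chromosome 18, 64499606 to 64499708), with a score of 6 in E13.5 A. It had no RE1 match in the 500-base window searched around its centre, where the closest sequence had 9 mismatches. A further one lay in the Onecut2 intron, 11.5 kb downstream of the start (chromosome 18, 64511417 to 64511545), again with a score of 6 in E13.5 A. Both ranked at 4.21, in a tie of 53 peaks of that score. The intron site held the closest RE1 match of the family, with 2 mismatches, of which 1 was at a widely shared position. The last site was intergenic, 29.5 kb upstream (chromosome 18, 64470305 to 64470630), with a score of 7 and a rank of 1.76 in E13.5 B, and had no RE1 match (8 mismatches at best). All 4 sites also belonged to St8sia3 by the same rule, because its start is within 100 kb of each of them. The site in the Onecut2 intron belonged to Amd-ps3 as well. The peak lists do not say which of the genes a site acts on.

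**Figure D2:**
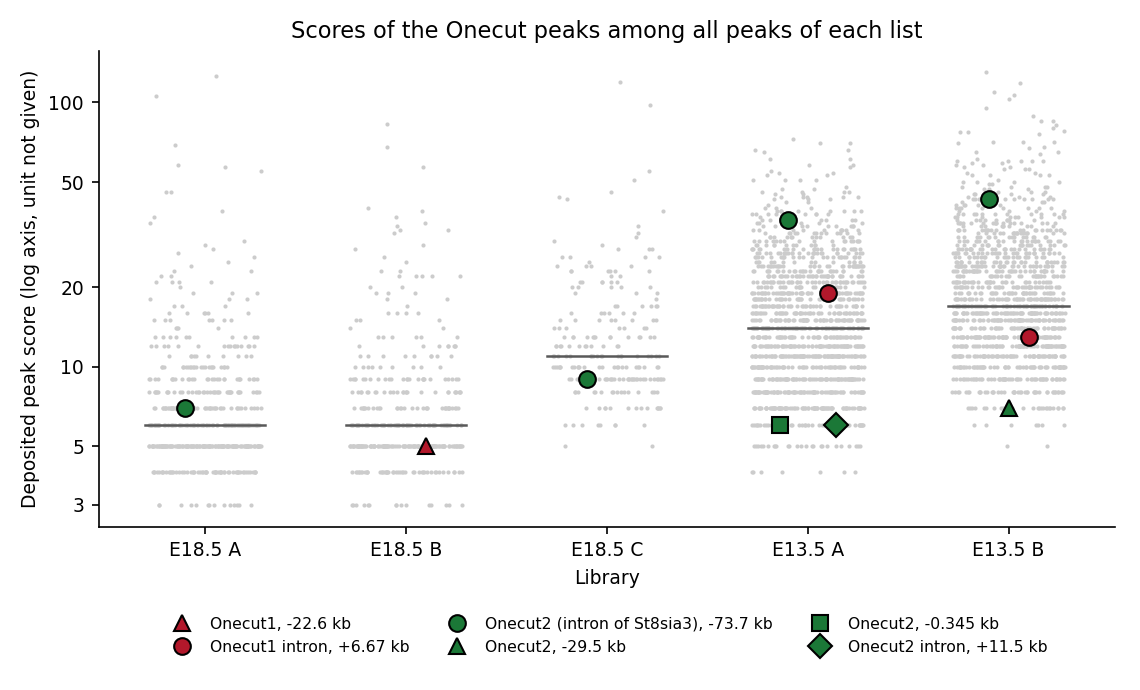
Deposited score of every peak in each library (grey points, spread sideways for display, with the median as a bar) on a log axis, and of the Onecut peaks (coloured). The site 73.7 kb upstream of Onecut2 stands high in both E13.5 lists at 36 and 43, the Onecut1 intron site is at 19 and 13, and the other sites are low in a single list each.

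Onecut3 had no called peak in any library in its body or within 100 kb of its start. The gene (ENSMUSG00000045518.7, chromosome 10, 79957651 to 79980003, plus strand) lies in a gene-rich stretch with 7 other protein-coding starts within 100 kb, Atp8b3, Fam108a, Klf16, Mbd3, Rexo1, Tcf3 and Uqcr11. The Onecut1 and Onecut2 windows held 1 other start each. The nearest site of any library was 254 kb downstream of Onecut3, in both E13.5 libraries. The 2 RE1 matches in the Onecut3 window, shown with the consensus, lay 84.3 and 64.9 kb upstream, each with 5 mismatches. No promoter or intron match was found at Onecut3 within the limit of 5 mismatches.

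By the same rule, applied to all protein-coding genes, a site called in both E13.5 libraries was present at 11.9% of genes (2661 of 22380), and at 2 of the 3 Onecut genes, Onecut1 and Onecut2. A site called in at least 2 of the 3 E18.5 libraries was present at 3.99% of genes and at 1 Onecut gene, Onecut2. In both counts Onecut2 was included only through the site 73.7 kb upstream. That site lay in an intron of St8sia3, with the St8sia3 start nearest to it. A peak in any library was present at 16.8% of genes, and at the same 2 Onecut genes. The number of 4 sites at Onecut2 was reached by 0.237% of genes (53 of 22380), though 3 of its 4 sites rested on 1 library each. With 3 members, these counts describe the family and were not tested against the genome.

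Fewer Onecut peaks were called at E18.5 than at E13.5. Each E18.5 library had 1 peak, against 4 in E13.5 A and 3 in E13.5 B, with means of 1 at E18.5 (SD 0, n = 3) and 3.5 ± 0.707 at E13.5 (SD, n = 2). The difference was -2.5 peaks per library, with no overlap between stages. The exact two-sided permutation test gave p = 0.2, which is the smallest value that 3 libraries against 2 can give, so it cannot pass 0.05. The lists differ in length, and per 1000 called peaks the values were 1.85, 2.40 and 4.42 at E18.5, against 2.86 and 2.25 at E13.5. On this scale the stages overlapped (2.89 ± 1.36 at E18.5, n = 3, and 2.55 ± 0.429 at E13.5, n = 2, exact two-sided permutation p = 1). The lower number of Onecut peaks at E18.5 thus went with shorter lists. Without E18.5 C the difference per 1000 peaks was -0.431 in place of 0.337.

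The sites of the 2 genes were next set beside other sites of the same strength, to see whether their calling at E18.5 was unusual. Of 134 other sites with a mean E13.5 rank within 5 points of the Onecut1 intron site, whose mean rank was 49.6, 32.1% (95% interval 24.3 to 40.7) were also called at E18.5, in 1 library or more. The absence of an E18.5 peak at Onecut1 was thus the more common outcome at that rank. Of 109 other sites ranked like the upstream Onecut2 site, at a mean of 94.8, 87.2% (79.4 to 92.8) were called in at least 2 E18.5 libraries, as this site was. In E18.5 B, where it was not called, 84.4% (76.2 to 90.6) of these sites had a peak. Where it was called, it ranked low for its class. Its rank of 61.3 in E18.5 A compared with a median of 87.0 for 95 such sites, of which 11 ranked lower. Its rank of 27.0 in E18.5 C compared with a median of 71.9 for 90 sites, of which 5 ranked lower. Intervals are exact binomial and cover counting error over sites only.

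**Figure D3:**
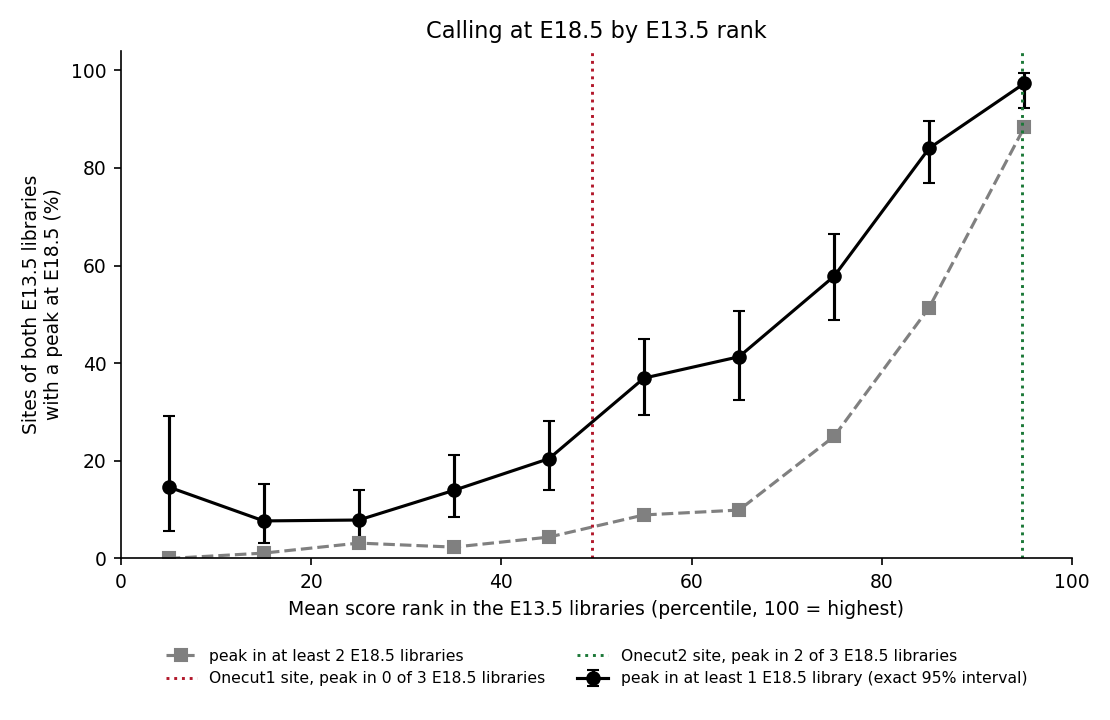
Percent of sites called in both E13.5 libraries that were also called in 1 or more (black, exact 95% intervals) or in 2 or more (grey) of the E18.5 libraries, by mean E13.5 score rank in steps of 10 points, with dotted lines at the Onecut1 intron site and the upstream Onecut2 site. The black curve is 20.4% in the step that holds Onecut1 and 97.3% in the step that holds Onecut2. The Onecut1 line, at 49.6, lies at the upper edge of its step, and the next step, from 50 to 60, is at 36.9%.

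The single-library sites were compared in the same way. Of 168 other E13.5 A sites with a rank within 5 points of the promoter and intron sites of Onecut2, 49.4% (41.6 to 57.2) also had a peak in E13.5 B, and 5.36% (2.48 to 9.93) had one at E18.5. Of 80 E13.5 B sites ranked like the Onecut2 site 29.5 kb upstream, 56.3% (44.7 to 67.3) were shared with E13.5 A. A site of this rank was thus about as often called in a single E13.5 library as in both. Of 124 other E18.5 B sites ranked like the upstream Onecut1 site, 25.8% (18.4 to 34.4) were called in a further E18.5 library and 38.7% (30.1 to 47.9) at E13.5, and this site in neither. RE1 was rare in sites called, like this one, in 1 E18.5 library only, counted at any rank and not among the rank-matched sites. Of 311 sites called in 1 E18.5 library and in no E13.5 library, 1 had an RE1 match (0.322%, 0.00814 to 1.78), against 71.3% (68.6 to 73.8) of 1183 sites of both E13.5 libraries and 0.254% of windows 10 kb away from these. The 1183 sites include those from which the consensus was learned.

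Close RE1 matches are few in the mouse genome, and the one in the Onecut2 intron was among them. Matches with 2 mismatches numbered 92 on the assembled chromosomes, of which 90 (97.8%) lay in a called site and 78 (84.8%) in a site of both E13.5 libraries. The counts and ranks of this paragraph cover all chromosomes and so include high-ranked sites from which the consensus was learned. Among 95 other sites of E13.5 A with a match of at most 2 mismatches the median rank was 69.7, and 3 of the 95 ranked below the Onecut2 intron site. It was therefore a close element with a weak peak. Matches with 4 and 5 mismatches, such as those of the other Onecut sites, were in a called site in 35.2% of 1150 and 5.17% of 5821 cases.

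How often a match was called, by its number of mismatches at the 12 widely shared positions, was examined after the Onecut matches had been seen. It was described on the chromosomes of the Onecut genes, which had not been used to derive the consensus. Matches without a mismatch at the 12 widely shared positions lay in a called site in 84.4% of cases (81 of 96). With 1 such mismatch it was 23.9% (48 of 201), and with 2 or more 1.79% (12 of 669). The match in the Onecut1 intron and that 73.7 kb upstream of Onecut2 had 0 and were called. The match in the Onecut2 intron had 1 and was called. The other Onecut1 matches had 2 and 3, as had those of the Onecut3 window, and none of these 4 had a peak. The Onecut matches are among the counted ones. The total number of mismatches was not held fixed in these shares. They therefore do not separate the position of mismatches from their number.

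**Figure D4:**
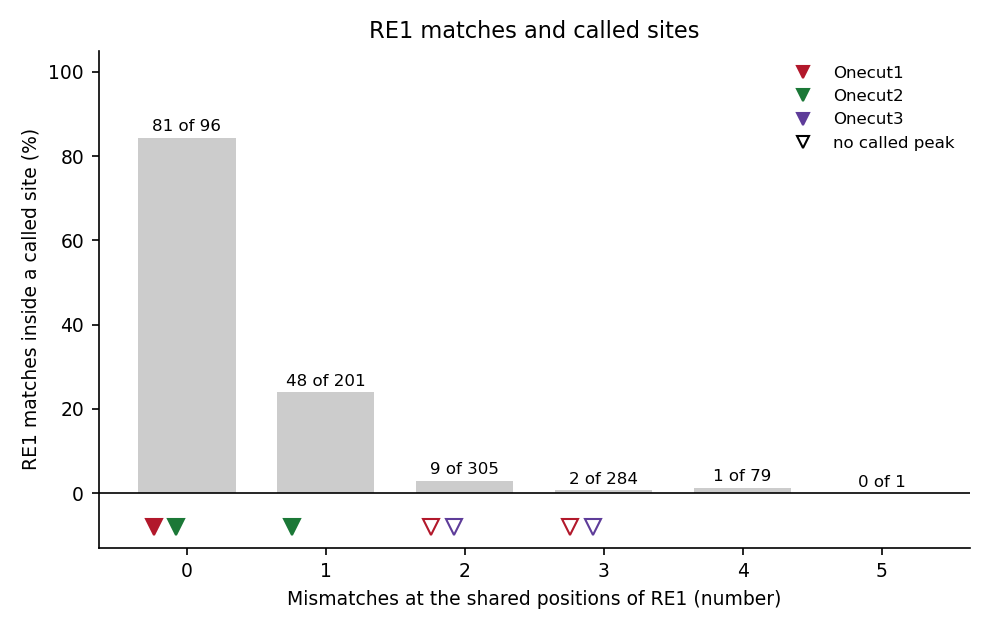
Percent of RE1 matches (at most 5 mismatches) inside a called site of any library, by the number of mismatches at the 12 widely shared positions, on the chromosomes of the Onecut genes, with counts above the bars. Triangles below the axis are the matches around Onecut1, Onecut2 and Onecut3, open where no peak was called. The 3 matches with a called peak have 0 or 1 such mismatch, and the 4 without have 2 or 3.

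Genes with the most similar pattern of ranks were found by the Euclidean distance between the best ranks in the 5 libraries, with 0 where no peak was called. For Onecut2 these were Cartpt, a neuropeptide gene of islets and brain (distance 12.4), Tph2, an enzyme of serotonin synthesis (16.0), Tbc1d15 (16.0) and Dhx34 (17.1). Cartpt had ranks of 70.2 in E18.5 A, none in B and 27.0 in C, against 86.9 and 92.5 in the E13.5 libraries. Its site was 51 bp from its start, and that of Tph2 16 bp from its start, whereas the Onecut2 site was distal. Tbc1d15 had the same ranks as Tph2 in every library, so these genes may not be separate cases. For Onecut1 the nearest were Aff1 (18.1), Wscd2 (18.3), and Atp6v1b2 and Lzts1 (20.2 each), all with the rank of 29.5 in E18.5 B that many peaks share. Atp6v1b2 and Lzts1 had the same ranks in every library and may not be separate cases. The ranks of Onecut1 came from different sites, the upstream site in E18.5 B and the intron site at E13.5. They are therefore a pattern of the gene window and not of a single site. These distances are descriptions over 5 libraries.

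Among relatives of the family with CUT domains, Cux2, a factor of upper-layer cortical neurons, had a site in both E13.5 libraries and no peak at E18.5. The site was 123 kb downstream of its start, at a mean E13.5 rank of 33.1, below that of the Onecut1 intron site, and was nearest to the start of Fam109a. Cux1 and Satb1 had no peak in any library within the same limits.

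In the pancreatic network around Onecut1, 4 of 16 genes (25%) had a site in both E13.5 libraries, against 11.9% of all genes, and 1 (6.25%) in at least 2 E18.5 libraries, against 3.99% of all genes. Pdx1, the master factor of the pancreas, had a site 81.2 kb upstream in E18.5 A and B and both E13.5 libraries (E13.5 rank 77.1), whose nearest start was that of Gsx1. Hnf4a, a hepatocyte and beta-cell factor, had 2 sites, the best at a rank of 68.9, 58.0 kb downstream and nearest to the start of Ttpal. Ptf1a, which drives the acinar fate, had a site 16.4 kb upstream at 54.7, and Neurog3, the trigger of the endocrine programme, one 5.14 kb downstream at 19.3. With its E13.5 rank of 49.6 the Onecut1 site stood between those of Ptf1a and Neurog3, and like them had no peak at E18.5. Hnf4a had none at E18.5 either, so of the 4 genes only Pdx1 had one. Sox9 and Foxa1, which like Onecut1 mark the progenitor and duct epithelium or its endoderm, had no peak in any library within these limits.

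Among neural factors of cell types in which Onecut proteins serve, 9 of 17 (52.9%) had a site in both E13.5 libraries, against 11.9% of all genes, and 2 (11.8%) in at least 2 E18.5 libraries, against 3.99%. Lhx3, a motor neuron factor, had a site 38 bp from its start at an E13.5 rank of 96.6, and Neurod1, which drives neuronal and endocrine differentiation, one 2.41 kb downstream of its start at 94.8. The sensory and retinal factors Pou4f1 and Pou4f2 had ranks of 75.1 and 44.6. Ptf1a, which is on both lists, had 54.7, and Tfap2b and Lhx4 had 52.5 and 48.5. The site of Tfap2b was nearer to the start of Tcfap2d. Isl1, Isl2, Mnx1 and Lhx1, all factors of motor neurons or retina, had no peak in the gene body or within 100 kb of the start, and sites farther away were not counted. The genes of these lists were chosen with results of these data known, and the counts were not tested.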

How the data were processed

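REST ChIP-seq was performed on pools of whole pancreas, with 3 libraries at E18.5 and 2 at E13.5. For E13.5 the methods of the study describe alignment of single-end 50-bp reads to mm9 with Bowtie2 2.2.5 at up to 1 mismatch, a mapping quality of at least 10, and peak calling with MACS2 2.1.0 against input DNA. For E18.5 these steps are not given there, but the submitters' processing notes name Bowtie2 2.2.5, SAMtools, MACS2 2.1.0 and mm9 for all libraries. Each deposited list belongs to 1 library, and from its name duplicates were removed and the false discovery rate was 10%. The study also called an E13.5 set from pooled reads at a lower false discovery rate, which was not used here. That set holds more regions than either E13.5 list. The score deposited by the authors is a whole number of unknown unit and was ranked within each library. The other deposited values are peak positions, which on the assembled chromosomes lay within the mm9 lengths and are given here counted from 1.

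Overlapping entries within a library were merged (4, 2 and 3 at E18.5, 7 and 2 at E13.5), with the highest score kept. Peaks of different libraries were joined when they overlapped by at least 1 bp. Genes came from GENCODE vM1 on mm9, with the outermost 5′ end of the gene as its start. The RE1 consensus was learned from 200-base windows of 500 sites, starting from the most enriched short word, and was searched on both strands in 500-base windows with at most 5 mismatches. No sequence is printed for Onecut2. Motif derivation and search, joining of peaks and gene assignment were tested on simulated data. Python 3.11.15, NumPy 2.4.6, SciPy 1.17.1 and pysam 0.24.0 were used. Stages were compared by exact permutation over libraries, and the series design calls the libraries of a stage biological replicates. Sites are not replicates, and shares over sites carry no test.

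The members and gene lists were chosen with earlier results of these data known. Named are the Onecut genes with every site, the gene holding each site and that with the nearest start, from each list up to 8 genes with a site in both E13.5 libraries and up to 4 others, and the 4 genes of most similar ranks. Some genes of the lists are not reported here. Tfap2a and Tfap2b were matched through older symbols. Alternatives changed the window, the gene start, the assignment rule, the score limit, the joining of peaks, the RE1 limits and the libraries used.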

Additional observations from a re-analysis of the deposited data

How the results depend on the processing

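The number of Onecut peaks per library was lower at E18.5 under all alternatives tried, with differences between -4.5 and -0.333, and from -3 to -2 when each library was left out in turn. With equal numbers of top-scoring peaks (226 per library) it was -0.333 (0.667 at E18.5 and 1 at E13.5, exact permutation p = 1). The difference per 1000 peaks had no stable direction. It was 0.337 as reported and turned to -1.02 with a window of 50 kb, to -2.27 at scores of 13 or more and to -1.47 with equal numbers of peaks, and it ranged from -0.431 to 0.858 when a library was left out. With letters A and B as a replicate block the differences were -2.5 peaks and -0.431 per 1000 peaks. The letters name different embryos at each stage and were not taken as pairs.

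Site counts kept within 1.5 times, except that the Onecut1 intron site was not among the 226 top-scoring peaks of both E13.5 libraries and that a window of 500 kb gave Onecut3 1 site. The gene window was changed only for the count of all sites of a gene, not for sites of both E13.5 libraries. A window of 50 kb leaves out the site 73.7 kb upstream of Onecut2. No other Onecut2 site was called in both E13.5 libraries or at E18.5. The 3 Onecut sites with an RE1 match were 2 with at most 4 mismatches, and 3 with at most 6 mismatches, in windows of 200 or 1000 bases and with a position weight matrix. The depth of the libraries is unknown, and scores of different libraries may not share a scale.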

Other observations

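Beyond 100 kb, and up to 500 kb from the start, 4 further sites were present around the Onecut genes. Upstream of Onecut2, a site at 298 kb (chromosome 18, 64202133 to 64202657) was called in E18.5 A and both E13.5 libraries, with an RE1 match of 1 mismatch, and a site at 363 kb (chromosome 18, 64136652 to 64137153) was called in E18.5 B and both E13.5 libraries, with 3 mismatches. The nearest protein-coding starts were those of St8sia3 and Wdr7. At Onecut3 a site 254 kb downstream (chromosome 10, 80211320 to 80211854) was called in both E13.5 libraries, with 3 mismatches, 6364 bp from the start of the histone methyltransferase gene Dot1l. At Onecut1 a site 304 kb upstream (chromosome 9, 74406049 to 74406348) was called in E18.5 A only and had no RE1 match, its closest sequence having 10 mismatches.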
